A study of Homo sapiens with 7 samples.

Results

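This account describes eIF3a contacts on 7 histone genes that lie in chr6:26000000-26300000 of the human genome (hg19): HIST1H1A, HIST1H1C, HIST1H1D, HIST1H1E, HIST1H2AC, HIST1H2BC and HIST1H2BD. Members were the listed sites that overlapped a fixed window around each gene on the gene's strand. The windows reach somewhat past the genes, so a distance from a window's edge is not a distance from a transcription start. They came to 4 clusters of reads, out of 3566 on the primary chromosomes, with 266 reads in all. A cluster is 1 stretch of overlapping reads. Of the 7 genes, 4 had 1 cluster each (HIST1H1C, HIST1H1E, HIST1H1D and HIST1H2BD) and 3 had none in the list (HIST1H1A, HIST1H2AC and HIST1H2BC). The interval held 2 further clusters, which are given by position.

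The data came from PAR-iCLIP of eIF3a in HEK293T, a human embryonic kidney line transformed with the large T antigen of SV40. The cells had taken up 4-thiouridine for 8 h, ultraviolet light of 354 nm joined protein to RNA at the labelled bases, and an antibody against eIF3a pulled down the complexes. The labels name 2 replicates and no other treatment. They do not say whether these came from separate cultures, and the list did not keep them apart, so no value below has a replicate error and no groups were compared. The 5 m6A libraries of the series were not analysed here.

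Histones package DNA into nucleosomes. H2A and H2B are core histones, around which the DNA is wound, and H1 is the linker histone that binds where the DNA enters and leaves. Most messages of these genes are made in S phase, come from genes without introns, and end in a stem-loop in place of a poly(A) tail. eIF3 is the multi-subunit initiation factor that works with the small ribosomal subunit as it is loaded onto a message, and eIF3a is its largest subunit.

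The 5' ends of the 7 messages differ in sequence and in their content of the base through which 4-thiouridine can crosslink. The first 25 bases after the transcription start, which is also the length of the reads, are shown for the 7 genes as DNA of the sense strand, from RefSeq (GRCh38.p14). All 7 were matched by an older symbol. RefSeq lists 2 starts for HIST1H2BD, 1 base apart, and the upstream one, first in the table, was used. Capitals mark T, the base that 4-thiouridine replaces in the RNA. These are annotated starts in another build than that of the sites, and the sites were not placed on them. The first 4 genes had a listed cluster and the last 3 had none.
HIST1H1C: aTcggcgcTTTgccacTTgTacccg
HIST1H1E: cgagTcccggccagTgccTcTgcTT
HIST1H1D: aTgcTgTTcTgacagTTTgagaTTa
HIST1H2BD: gaTTaTTTTcTcaggTgTTTgcaac
HIST1H1A: gcaTccTgcTTcgTcaggTTTaTac
HIST1H2BC: gacacaTTTcTggTgTTTTaagaTg
HIST1H2AC: gaTTTTgTTTgTTTTcTcgTgagcT

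Genes with and without a cluster overlapped in their content of T. In the first 50 bases, HIST1H1E had 12 T, HIST1H1C 17, HIST1H2BD 19 (20 from its other start) and HIST1H1D 20. Of the genes without a cluster, HIST1H2BC had 14, HIST1H1A 21 and HIST1H2AC 26. Over all 35116 RefSeq windows the median was 10, with quartiles of 7 and 13, so 6 of the 7 genes lay above the upper quartile and HIST1H1E did not. GGAC, the core of the commonest m6A context, occurred in the sense strand of the first 50 bases in 0 of the 7 genes and in 18.9% of all windows. Its complement, GTCC, occurred in HIST1H1C and HIST1H1E and in 17.6% of all windows. The longest run of bases that any of the 7 stretches shared with the same stretch of another gene was 12 to 15 bases. It was at most 7 bases among the members themselves. A read of 25 bases lying wholly in these stretches therefore had no perfect match in the same stretch of another gene of that table. The coding sequences, which are more alike among histones, were not compared.

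Among the linker histone genes, HIST1H1E, which encodes H1.4, had the most reads of all members. Its listed interval was on the plus strand at chr6:26156559-26156618, 60 nt long and 59 nt inside the 5' edge of the gene's window. The cluster held 95 reads over 306 nt. Its score, which is the highest read coverage reached in the cluster, was 21. No start position of a member held more than 1 read of 25 nt, so a member's score could not exceed 25. The highest score among the primary clusters was 24. Only 8 of the primary clusters held more reads and 11 scored higher. The exact 95% Poisson interval for the 95 reads was 76.9 to 116, and such intervals cover counting error only.

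HIST1H1C, which encodes H1.2, had the longest cluster of the members. It was listed on the minus strand at chr6:26056657-26056699, 43 nt long and 51 nt inside the 5' edge of the window. The cluster ran over 332 nt, and 9 primary clusters were longer. It held 76 reads (interval 59.9 to 95.1) with a score of 15. More reads were found in 22 clusters and a higher score in 129, so HIST1H1C ranked higher by reads than by summit.

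HIST1H1D, which encodes H1.3, had a short cluster with a high summit. It was listed on the minus strand at chr6:26235162-26235216, 55 nt long and 84 nt inside the 5' edge of the window. The cluster measured 64 nt and held 18 reads (interval 10.7 to 28.4), yet its score of 14 was close to the 15 of HIST1H1C. By reads alone, 533 clusters exceeded it. Of the 389 clusters of 59 to 69 nt, only 5 held more reads, and the median of those clusters was 6. HIST1H1A, which encodes H1.1, had 0 listed entries on either strand of its window, chr6:26017200-26018100. The nearest listed cluster was that of HIST1H1C, 38557 nt away. The lowest score in the list was 2 and no source used here names its filters, so the 0 does not show that eIF3a made no contact there.

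Among the core histone genes, HIST1H2BD, an H2B gene, had 1 cluster and the neighbouring pair HIST1H2BC and HIST1H2AC had none. The HIST1H2BD site was listed on the plus strand at chr6:26158349-26158397, 49 nt long and 49 nt inside the 5' edge of a window of 13301 nt. The cluster held 77 reads (interval 60.8 to 96.2) over 296 nt, with a score of 17. More reads were found in 21 clusters and a higher score in 71. No other entry fell in the remaining length of that window. The site lay 1730 nt beyond that of HIST1H1E on the same strand. HIST1H2BC, an H2B gene on the minus strand, and HIST1H2AC, an H2A gene on the plus strand, lie head to head. No entry of either strand fell in the window of HIST1H2BC, chr6:26123650-26124200, or in that of HIST1H2AC, chr6:26124300-26139400, which covered 15101 nt. The nearest listed cluster to both was that of HIST1H1E, 17159 nt from the HIST1H2AC window and 32359 nt from that of HIST1H2BC.

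**Figure D1:**
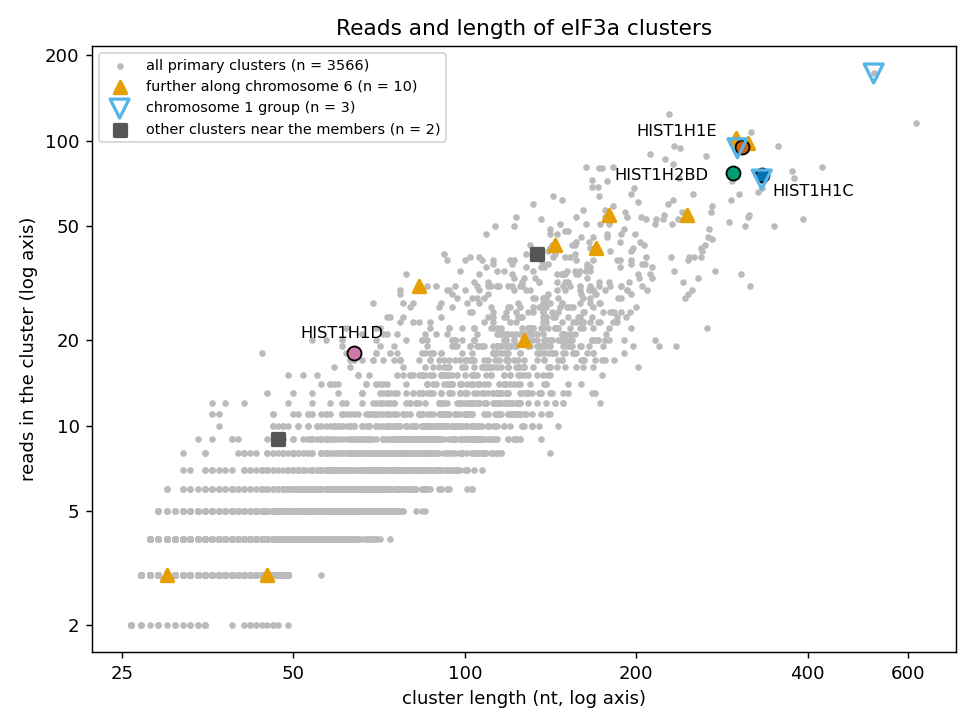
Reads per cluster (vertical, log axis) against cluster length in nt (horizontal, log axis), with 1 point per primary cluster. HIST1H1E, HIST1H2BD and HIST1H1C sit at the upper right with 95, 77 and 76 reads, and HIST1H1D lies at the upper edge of the clusters of its length with 18. Triangles pointing up are the 10 clusters at 27 to 28 Mb of chromosome 6, open triangles pointing down are 3 clusters on the minus strand of chromosome 1, and squares are the 2 further clusters near the members.

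The members differed far more in length and in reads than in reads per length. HIST1H1E held 31.0 reads per 100 nt of cluster (exact 95% Poisson interval 25.1 to 38.0) and HIST1H1D 28.1 (16.7 to 44.4). HIST1H2BD held 26 (20.5 to 32.5) and HIST1H1C 22.9 (18.0 to 28.7). No read start of a member held more than 1 read, so these counts are capped at 1 per position, and Poisson intervals, which assume no such cap, are only a guide. The differences between members were not tested. In reads per 100 nt the median of the 4 was 27.1, against 10.7 in the other 3562 primary clusters. In the share of possible start positions that held a read, the gap was smaller, with medians of 31.0% and 19.4%. HIST1H1D, had more reads than 83.8% of the primary clusters and more reads per length than 96.4%. For HIST1H1C the shares were 99.4% and 93.0%.

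Clusters with as many reads, or as long, were rare in the list. Of the 4 members, 3 held 40 or more reads, as did 3.42% of all primary clusters. The same 3 were 200 nt or longer, as were 2.44% of all. Both limits were set after the values were seen, and each gene gives 1 cluster, so these counts describe the members and are not tests. Long clusters hold many reads in general. Among the 87 clusters of 200 nt or longer, the median was 53 reads and 19.1 reads per 100 nt. Within these 87, 8 held more reads than HIST1H1E, 17 more than HIST1H2BD and 18 more than HIST1H1C. By reads per 100 nt the numbers ahead were 13, 19 and 28.

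The listed intervals were short and of ordinary length, while the clusters behind them were not. The 4 intervals measured 43 to 60 nt, with a median of 52, against 48 in the other primary clusters. The cluster medians were 301 nt and 61 nt. The list therefore gave 13.0% of the HIST1H1C cluster, 16.6% of that of HIST1H2BD and 19.6% of that of HIST1H1E, but 85.9% of that of HIST1H1D. All 4 intervals were shorter than their cluster by more than the 1 nt that is usual in the list, as were 42.2% of all primary clusters. Among the 87 clusters of 200 nt or longer, 60 were listed shortened in this way. The unlisted lengths were 289 nt for HIST1H1C, 247 nt for HIST1H2BD, 246 nt for HIST1H1E and 9 nt for HIST1H1D. On which side of the interval that length lay is not recorded. All 4 intervals began within 100 nt of the 5' edge of a window, and none lay near the 3' edge.

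Coverage in the 3 long clusters was highest near the 5' end of the cluster and came in several hills. Positions here are counted in the direction of the RNA from the first base of the cluster. Profiles run along the chromosome, so those of the minus strand were turned round. This direction was read from clusters of 10 or more reads whose profile recurred on the opposite strand: 8 pairs were mirror images and 0 were the same way round. A hill counts as separate where coverage falls to 50% or less of its height before a higher one, and hills under 3 reads were left out.

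In HIST1H1E coverage reached 10 reads at position 19 and peaked at 21 reads at position 72. It fell to 6 and rose to a second hill of 15 reads at position 146. Past a dip to 1 read, low hills of 5 and 3 reads followed at positions 219 and 239. In HIST1H2BD coverage reached 10 reads at position 11 and peaked at 17 reads at position 43. Hills of 11, 10 and 8 reads followed at positions 118, 184 and 263, with dips to 3, 2 and 1 reads between them. Its 4 hills were 75, 66 and 79 nt apart. Spacing was less even in the other long clusters, at 74, 73 and 20 nt in HIST1H1E and 44, 91, 53 and 47 nt in HIST1H1C. In HIST1H1C coverage reached 10 reads at position 15 and peaked at 15 reads between positions 45 and 56. Later hills of 8, 9, 5 and 6 reads stood at positions 89, 180, 233 and 280. HIST1H1D had a single hill of 14 reads at positions 40 to 43, and coverage reached 10 reads at position 32. Its summit was about as far from the 5' end as those of HIST1H2BD and HIST1H1C. In a cluster of only 64 nt that distance lay toward the 3' side.

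**Figure D2:**
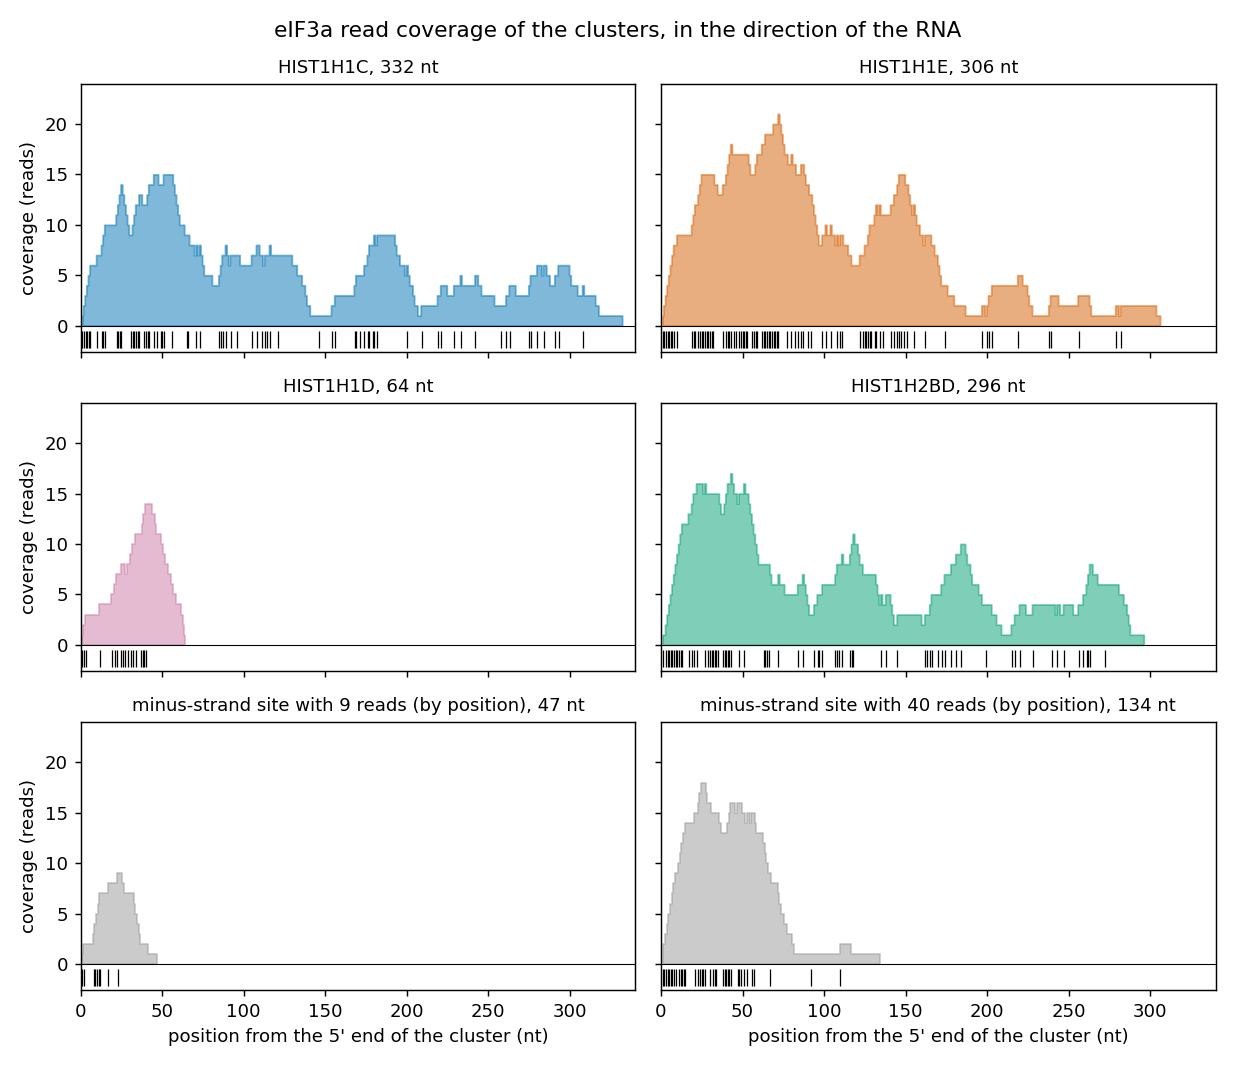
Read coverage (vertical, reads) against position from the 5' end of the cluster (horizontal, nt, in the direction of the RNA) for the 4 members and the 2 further clusters of the interval. Ticks under each profile mark the 5' ends of reads, 1 read each. The highest coverage lies within the first 72 nt of the 3 long clusters, which carry lower hills as far as 239 to 280 nt from the 5' end. The further cluster of 134 nt peaks at positions 25 to 27. HIST1H1D and the other further cluster are themselves shorter than 72 nt.

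In iCLIP the 5' end of a read commonly lies next to the crosslinked base, where reverse transcription stopped. Whether each read end did so here was not tested, because the reads were not placed on sequence. Read 5' ends were densest in the first 50 positions of the long clusters. Of these positions, 64% held a read in HIST1H1E, 62% in HIST1H2BD and 56% in HIST1H1C. In HIST1H1D, 45% of its 40 possible positions did. No position of any member held 2 reads. HIST1H1E stayed dense for longer than the others: 54% of positions 51 to 100 and 44% of positions 101 to 150 were occupied, then 12% of positions 151 to 200. In HIST1H2BD and HIST1H1C both, occupancy was 24% in positions 51 to 100. From there it stayed between 12% and 27.3% to the ends of these clusters.

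The first 50 positions held 31 of the 77 reads of HIST1H2BD (40.3%), 28 of the 76 of HIST1H1C (36.8%) and 32 of the 95 of HIST1H1E (33.7%). The last 50 held 10 reads (13.0%), 9 reads (11.8%) and 5 reads (5.26%). Over the 87 long clusters the first 50 positions held a median of 24.3% of the reads, with quartiles of 17.7% and 32.8%, and the last 50 a median of 17.1%. A larger share in the first 50 was found in 6 of the 87 for HIST1H2BD, 13 for HIST1H1C and 20 for HIST1H1E. All 3 members were thus above the upper quartile of the long clusters. All 3 were also listed shortened, and against the 60 long clusters listed that way, with an upper quartile of 36.1%, HIST1H2BD and HIST1H1C were above it and HIST1H1E was not. The 3 long clusters at 27 to 28 Mb of chromosome 6 held 31.4% to 47.3% of their reads in the first 50 positions. Their median was 34.7%, and all 3 held more there than in the last 50. The 3 clusters on the minus strand of chromosome 1 had smaller first shares than any long member, namely 17.4%, 27.4% and 31.9%. The smallest of these was also under the lower quartile of the long clusters. Each of the 3 still held more reads in its first 50 positions than in its last 50. A share in the first 50 positions also depends on the length and reads of the whole cluster. These 3 ran over 301 to 522 nt with 73 to 172 reads. The long members ran over 296 to 332 nt with 76 to 95 reads. A smaller share therefore need not mean fewer reads in the first 50 positions.

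**Figure D3:**
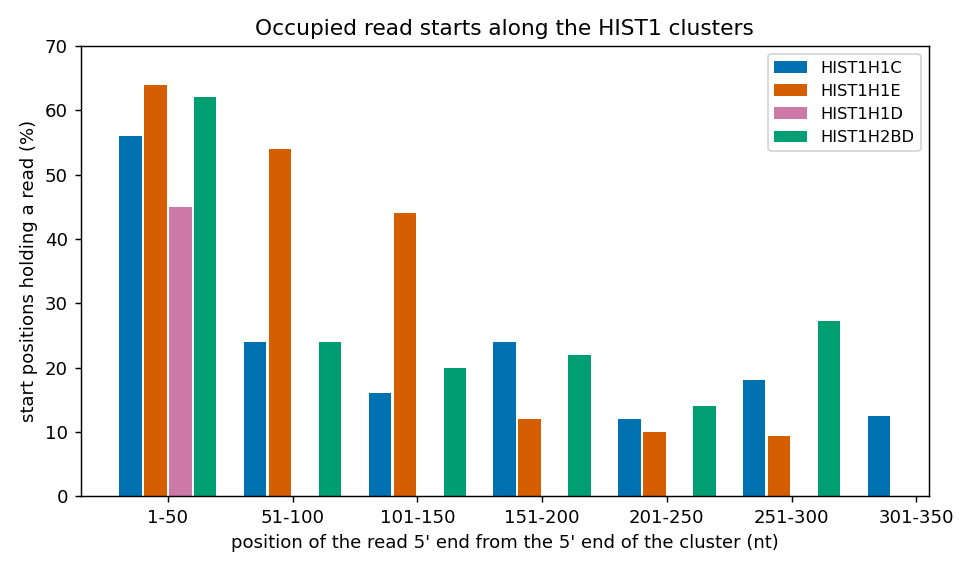
Share of possible positions that held the 5' end of a read (vertical, percent) in stretches of 50 nt from the 5' end of the cluster (horizontal, nt), as bars for each of the 4 HIST1 clusters. The first stretch is the fullest in all 4, at 45% to 64%, and HIST1H1E stays at 44% or above to position 150. The last stretch of each cluster is shorter than 50 nt, and HIST1H1D has only 1, at 45%.

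Whether the listed part of a cluster is the part with most reads depends on where it lies in the cluster. If it is the 5' part, the listed 49 nt of HIST1H2BD held the summit of 17 reads and the first 31 reads. On the same reading the listed 60 nt of HIST1H1E reached 18 of 21 reads at the summit, and the listed 43 nt of HIST1H1C 14 of 15. If it is the 3' part, coverage in the listed interval would have reached only 8, 3 and 6 reads in these genes. In that case the 3 long clusters would also begin outside the windows of their genes. For HIST1H1D the summit of 14 reads is included either way. A cluster of the interval that was listed at different lengths gives 1 case of this placement. On the minus strand the list held both chr6:26199391-26199521 and chr6:26199472-26199521, which share the 5' end, and the shorter lacked 81 nt at the 3' side.

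That cluster and its neighbour made up the 3 other entries of the interval. The longer one held 40 reads (exact 95% Poisson interval 28.6 to 54.5) over 134 nt with a score of 18, and 117 primary clusters held more. Its coverage peaked at positions 25 to 27, and 33 of its reads (82.5%) began in the first 50 positions. The other lay 84 nt away on the minus strand, at chr6:26199261-26199306, with 9 reads over 47 nt and a score of 9. At 29.9 reads per 100 nt the longer cluster was within the range of the members, and the shorter was below it at 19.1. Neither was in the window of a member.

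No read pattern of the members recurred elsewhere in the list. Stretches of 40 nt that held 10 to 30 read starts were compared with those of all 3604 clusters. HIST1H1E gave 141 such stretches, HIST1H1C 111, HIST1H2BD 102 and HIST1H1D 1, and 0 of them were found at another locus. The profile of each as a whole was also found once. Only copies that are themselves in the list could be found.

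Clusters of similar median reads per length were found at 2 other stretches that are known for histone genes. They were taken by position, and the genes under them were not assigned. On chromosome 6 from 27 to 28 Mb, 10 clusters, taken from either strand, held 3 to 102 reads with a median of 42.5. Their reads per 100 nt ran from 6.67 to 37.3, with a median of 27.3. On the minus strand of chromosome 1, 3 clusters listed within chr1:149783879-149858232 held 73 to 172 reads, with a median of 31.2 reads per 100 nt. The values of the 4 members, 18 to 95 reads and 22.9 to 31.0 per 100 nt, lay within the range of the first group for both measures. The listed interval was also a small part of the cluster there, with medians of 19.1% and 12.7% beside 18.1% in the members and 97.1% in the primary clusters other than the members. The 97.1% is not matched for length. Those other clusters had a median of 61 nt, against 301 nt in the members, 157 nt on chromosome 6 and 332 nt on chromosome 1. Shortened listing was common among long clusters in general, at 60 of the 87 of 200 nt or longer, against 1505 of all 3566. With 4, 10 and 3 clusters in 1 unreplicated list, no difference between the groups was tested.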

How the data were processed

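Per the submitters' processing notes, eIF3a reads were aligned to hg19 with Bowtie. No version, cluster caller, filter, handling of duplicates or pooling of replicates is named in the sources used here. Their eIF3a data were deposited as 1 list for the series, 4013 entries without a header, with a signal (the highest coverage, in whole reads, not normalized) and a coverage profile of the cluster. The signal equalled the profile's maximum in 4013 entries. Entries of 1 chromosome, strand and profile within 1 profile length were counted as 1 cluster. All 3113 distinct profiles split exactly into reads of 25 nt, and the splitting and turning of profiles were tested on simulated data. Library depth is unknown. Coordinates are hg19, counted from 1, and may be off by 1 nt. Gene windows were fixed by position, all 7 genes were named whatever their values and all other entries of the interval given by position, and members, lists and limits were chosen with earlier results of these data known. No hg19 annotation was used, so exons and untranslated regions were not assigned, and no protein sequences were compared. Poisson intervals are exact, at 95%. Alternatives changed the counting of entries, strand, windows, overlap, score and measure of size. Python 3.11.15, numpy 2.4.6, pandas 2.3.3, scipy 1.17.1 and matplotlib 3.10.9 were used.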

Additional observations from a re-analysis of the deposited data

How the results depend on the processing

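The reads of the 7 genes were identical in all 28 alternatives, a number that is the total over the genes. Each gene was recounted with every entry, with either strand, with windows widened by 500 nt, and with the listed interval required to lie inside the window. The number of clusters, 4, and the median of 76.5 reads were also the same in every alternative run, including a score at or above the list's median of 5, the merging of overlapping clusters and the removal of profiles seen at another locus. These alternatives reuse the same 4 entries and are not separate checks. The percentage of primary clusters below the median member was 99.4% by reads, 95.9% by reads per 100 nt and 96.4% by score. A comparison of protein sequences, planned at the start, was left out for want of them. No paired analysis was possible because entries carry no replicate number, and for the same reason no replicate could be left out. Depth limits the single genes: HIST1H1D rests on 18 reads, and a gene without an entry may lie below the filters of the list.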

Other observations

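Among the 87 clusters of 200 nt or longer, those listed shortened and those listed in full differed in where their reads began. In the 60 shortened clusters, which include HIST1H1C, HIST1H1E and HIST1H2BD, the first 50 positions held a median of 26.5% of the reads and the last 50 held 16.2%. The first exceeded the last in 42 of the 60. In the 27 listed in full the medians were 18.9% and 21.1%, and the first exceeded the last in 11. The difference was seen in the data and was not tested.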
